A study of Mus musculus with 3 samples.

Results

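Mitochondrial ribosomal protein genes are the nuclear genes whose symbols begin with Mrpl or Mrps followed by a number, and 77 of the 23282 gene entries in the bone marrow files carried such a symbol. They were chosen by symbol alone, so no expression value entered the choice. By the structure of the mammalian mitochondrial ribosome, 50 of them encode large subunit proteins and 26 small subunit proteins. The remaining gene, Mrps36, keeps its ribosomal symbol but encodes KGD4, a subunit of the 2-oxoglutarate dehydrogenase complex. Mrps30 and Mrps18a have small subunit symbols, but their proteins sit in the large subunit and are counted there. Within the ribosome 46 of the genes encode relatives of bacterial ribosomal proteins and 30 encode proteins classed as mitochondria-specific. Mrps18a and Mrps18b are among the 30 under their names mL66 and mS40, although both derive from the bacterial protein bS18. The 77 genes lie on 17 chromosomes, with at most 10 on one of them, chromosome 11.

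The samples were bone marrow of male wild type C57BL/6 mice, 6 weeks old, given sterile water by oral gavage for 28 days as the vehicle of a herbal medicine study and harvested on day 29. A red cell lysis step preceded the RNA preparation. There were 3 vehicle libraries, numbered replicates 1, 2 and 3 by the labels. Samples given the herb were not analysed here, and no treatment effect is described. Whether each library is from its own mouse is not stated in the labels, so SDs measure only the spread between these samples, which may be technical. The exact binomial p-values below set single libraries against counting noise, and no p-value here extends beyond these samples.

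Mitochondria keep a small genome that encodes core subunits of the respiratory chain and of ATP synthase, and they translate it on ribosomes of their own. All proteins of these ribosomes are made from nuclear genes in the cytosol, imported, and assembled on mitochondrial ribosomal RNA. In bone marrow, dividing progenitors and haemoglobin-making erythroid precursors depend on mitochondrial translation, whereas mature neutrophils hold few mitochondria and rely largely on glycolysis.

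The libraries held 9168435, 8104828 and 9137125 reads assigned to entries. Levels are the authors' normalised reads per 1000000, recovered from their log2 values and called normalised CPM. The kit reads the polyadenylated end and gives about 1 fragment per transcript, so levels of different genes were compared without a length correction. A count of 3 reads, the limit that a count of 0 allows, stood at 0.292, 0.361 and 0.325 CPM in replicates 1, 2 and 3, for counting error only. Marrow markers were abundant: neutrophil markers summed to 79428, 67606 and 90663 CPM, whereas 8 markers of liver, muscle and epithelium each stayed at or below 1.94 CPM, with 3 of them at 0 reads in every library. Replicate 1 was low in the sum of erythroid markers, at 67367 CPM there and 109939 and 111754 CPM in replicates 2 and 3. That sum was mostly globin, with Hba-a1 alone at 42422, 69279 and 71990 CPM. Of the 10 erythroid markers 8 were lowest in replicate 1, whereas Car1 was lowest in replicate 2 and Tfrc in replicate 3. In such mixed tissue, fewer cells of a type and less RNA per cell cannot be told apart.

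All 77 genes had reads, and together they made up a small and even part of the marrow RNA. Their summed level was 2045, 2016 and 2111 CPM in replicates 1, 2 and 3, a mean of 2058 ± 48.7 CPM (SD, n = 3). The highest library stood 1.05-fold above the lowest, and the coefficient of variation (CV) was 2.37%. As a share of assigned reads they held 0.230%, 0.207% and 0.213%, with exact 95% Clopper-Pearson intervals of 0.226% to 0.233%, 0.204% to 0.210% and 0.210% to 0.216%. Replicate 3 was highest on the normalised scale and replicate 1 in the share of reads, so the order of the 3 libraries depends on the scaling. The summed CV was 5.45% with library totals, 2.95% with trimmed-mean (TMM) scaling and 0.477% with totals that leave out ribosomal RNA and globins.

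**Figure D1:**
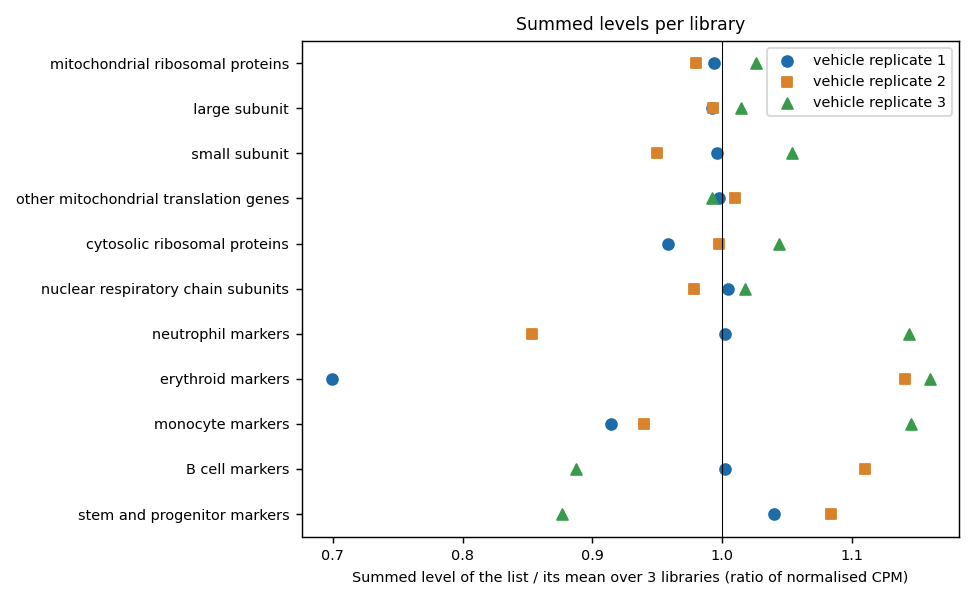
Summed level of each gene list in each vehicle library, divided by its mean over the 3 libraries (horizontal axis, a ratio of normalised CPM), with 1 point per library. The mitochondrial ribosomal protein genes span 0.98 to 1.03 times their mean, whereas erythroid markers lie lowest in replicate 1 and neutrophil markers lowest in replicate 2.

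Summed levels of cell type markers varied more between libraries than the sum of the ribosomal genes, but the sums differ in kind. A marker list holds 4 to 10 genes, against 77, and can rest on a few of them. Of the neutrophil mean sum of 79233 CPM, S100a9 held 35960 and S100a8 26242. The 9622 other entries in the members' range of reads had a summed CV of 0.433%, below the 2.37% of the members. The CV of the summed level was 26.1% for erythroid markers, 14.6% for neutrophil markers, 12.7% for monocyte markers, 11.1% for B cell markers and 10.9% for stem and progenitor markers. It was 22.1% for T and NK cell markers and 6.71% for megakaryocyte markers, the lowest of these lists. The part of these shifts in the levels of single ribosomal genes was not tested. In the plot of summed levels per library, the gene groups most like the mitochondrial ribosome were also narrow. Cytosolic ribosomal protein genes, the other translation machinery of the cell, summed to 30217, 31454 and 32894 CPM (CV 4.25%). Nuclear genes of the respiratory chain, whose products join the proteins that mitochondrial ribosomes make, summed to 6518, 6350 and 6606 CPM (CV 2.0%).

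A mitochondrial ribosomal protein gene was expressed well below a cytosolic one. The mitochondrial genes averaged 26.7 CPM, and the 79 cytosolic ribosomal protein entries averaged 399 CPM. The log2 ratio of cytosolic over mitochondrial mean level per gene was 3.90 ± 0.04 (SD, n = 3), a 14.9-fold difference. The 84 nuclear respiratory chain entries averaged 77.3 CPM, and their log2 ratio over the mitochondrial ribosomal genes was 1.53 ± 0.01, a 2.89-fold difference. In 3 of 3 libraries each of these ratios exceeded 0. An exact sign-flip permutation test (two-sided) gave p = 0.25 for each, and no smaller p is possible with 3 libraries.

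Although the products are built into one particle, the transcripts were far from equal. The median level was 22.1 CPM, and the quartiles were 12.3 and 33.1 CPM, a 2.70-fold range. Of the 77 genes, 6 averaged 50 CPM or more, 60 lay between 10 and 50 CPM and 11 lay below 10 CPM. From the highest gene, Mrpl34, to Mrps27, the lowest with at least 30 reads, the difference was 55.6-fold. The 3 highest genes held 16.7% of the summed level and the 10 highest held 34.7%. The order was alike in the 3 libraries, with Spearman correlations across the 77 genes of 0.955 between replicates 1 and 2, 0.942 between 1 and 3, and 0.948 between 2 and 3. Genes within a library are not independent replicates.

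**Figure D2:**
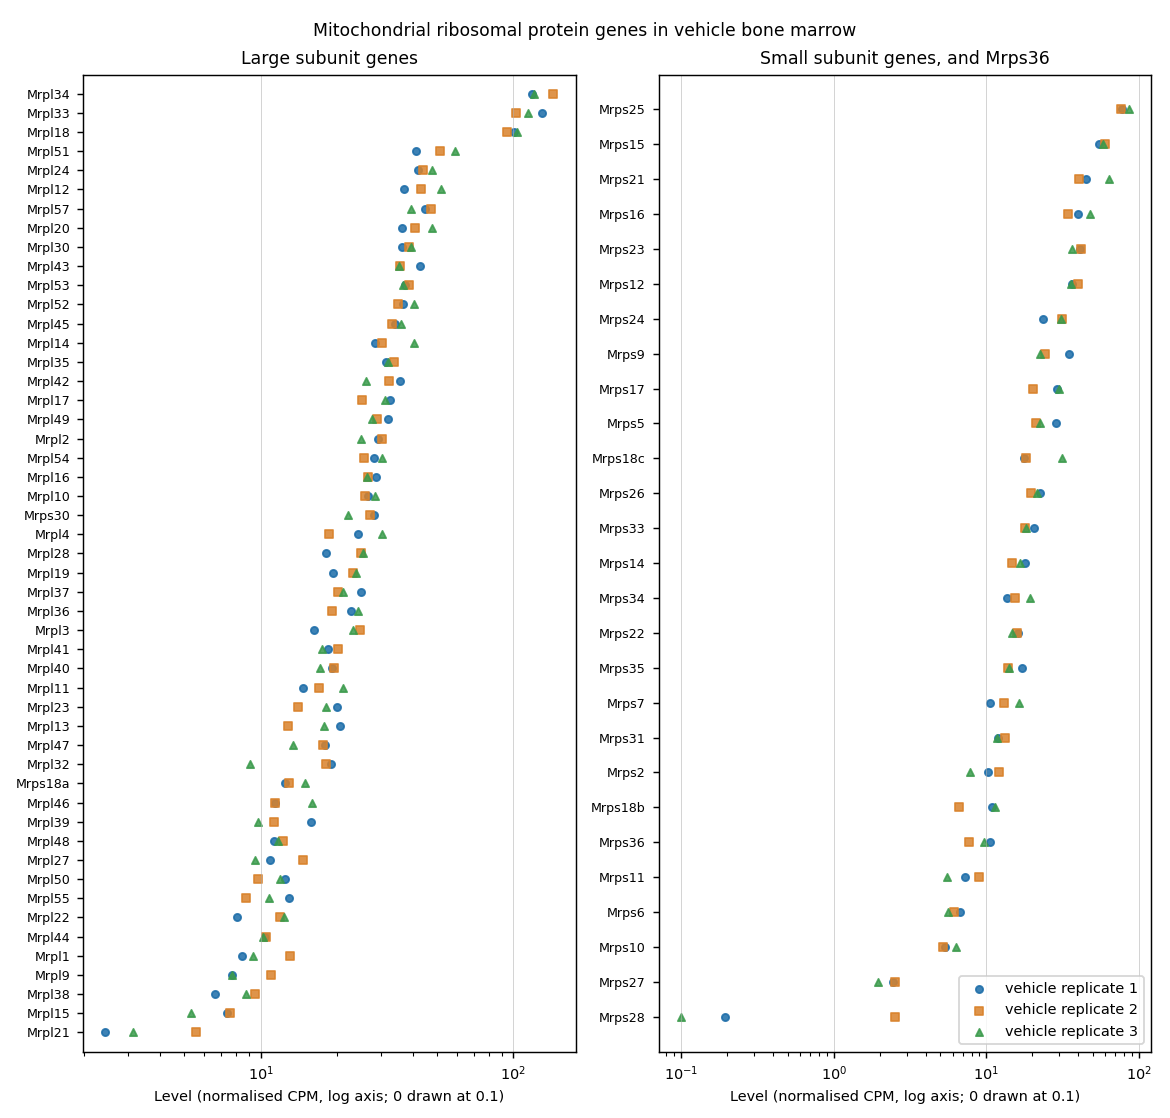
Level of each of the 77 genes in each vehicle library (horizontal axis, normalised CPM on a log axis), large subunit genes on the left and small subunit genes with Mrps36 on the right, sorted by mean level. Mrpl34, Mrpl33 and Mrpl18 stand apart at the top of the large subunit, and Mrpl21, Mrps27 and Mrps28 at the bottom.

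Large subunit genes took the top of the order. Mrpl34 (GRCm38 chromosome 8, 71464959 to 71465747), which encodes bL34m, one of the smallest proteins of the large subunit, had 119, 144 and 121 CPM in replicates 1, 2 and 3, a mean of 128 ± 13.8 CPM (SD, n = 3). Mrpl33 (chromosome 5, 31596935 to 31664384), for bL33m, had 130, 103 and 115 CPM. Mrpl18 (chromosome 17, 12911349 to 12916345), for uL18m, a relative of the protein that binds 5S ribosomal RNA in bacteria, had 101, 94.2 and 104 CPM. Mrpl34 was highest in replicate 2, where Mrpl33 and Mrpl18 were lowest, and the values of Mrpl34 and Mrpl33 overlapped.

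Next came 2 small subunit genes. Mrps25 (chromosome 6, 92169525 to 92184033), for the mitochondria-specific protein mS25, had 77.1, 75.7 and 85.8 CPM. Mrps15 (chromosome 4, 126046925 to 126055532), for uS15m, had 54.7, 59.5 and 58.4 CPM. These steps were the only ones without overlapping values: the 3 values of Mrps25 lay below all values of Mrpl18 and above all values of Mrps15. Both rest on Mrps25, whose level is uncertain because its 3′ end overlaps an exon of Nr2c2, as described below. The other 74 of the 76 neighbouring pairs in the order overlapped, and a gene overlapped a median of 7 genes below it.

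The remaining genes of the highest 10 lay close together. Mrpl51, for mL51, had 41.4, 51.1 and 58.7 CPM, and Mrps21, for bS21m, had 45.2, 40.1 and 63.8 CPM. Mrpl24, for uL24m, had 41.9, 44.0 and 47.9 CPM. Mrpl12, for bL12m of the stalk that recruits translation factors, had 37.0, 43.0 and 51.8 CPM. Mrpl57, for mL63, had 44.7, 47.3 and 39.5 CPM. All 5 overlapped with each other.

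At the other end stood small subunit genes and Mrpl21. Mrps28 (chromosome 3, 8802146 to 8923918), for bS1m, had 2, 21 and 0 reads, or 0.194, 2.53 and 0 CPM, and was the only member with fewer than 30 reads. Its reads thus came almost entirely from replicate 2, and the 0 in replicate 3 allows up to 0.325 CPM. Mrps27, for mS27, a pentatricopeptide repeat protein, had 2.43, 2.53 and 1.95 CPM. Mrpl21 (chromosome 19, 3282901 to 3292837), for bL21m, had 2.43, 5.54 and 3.14 CPM. Mrps10, for uS10m, had 5.34, 5.18 and 6.28 CPM, and Mrps6, for bS6m, had 6.70, 6.14 and 5.63 CPM. A low level here is a low number of reads assigned at the 3′ end, and whether the annotation holds the 3′ end used in marrow was not tested.

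Promoters of the 2 highest genes and of the 2 tested genes with the largest fold between libraries, Mrpl21 and Mrpl32, are shown because they carry the motifs described next. They run from 250 bases before to 50 after the RefSeq start, in build GRCm38.p6, 5′ to 3′ on the gene's strand. Capitals mark matches to the motif of ETS factors (CCGGAAG), which include the GA-binding protein GABP, of nuclear respiratory factor 1 (NRF1, GCGCATGCG) or of YY1 (AAGATGGC), on either strand. These factors are known regulators of nuclear genes for mitochondrial proteins.
Mrpl34, chr8:71464676-71464975, plus strand: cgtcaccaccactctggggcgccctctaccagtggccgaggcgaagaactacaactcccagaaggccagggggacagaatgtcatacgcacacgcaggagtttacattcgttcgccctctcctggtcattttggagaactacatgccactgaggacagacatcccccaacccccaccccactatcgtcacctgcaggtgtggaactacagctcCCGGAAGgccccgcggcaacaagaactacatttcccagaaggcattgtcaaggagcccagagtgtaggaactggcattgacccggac
Mrpl33, chr5:31613701-31614000, plus strand: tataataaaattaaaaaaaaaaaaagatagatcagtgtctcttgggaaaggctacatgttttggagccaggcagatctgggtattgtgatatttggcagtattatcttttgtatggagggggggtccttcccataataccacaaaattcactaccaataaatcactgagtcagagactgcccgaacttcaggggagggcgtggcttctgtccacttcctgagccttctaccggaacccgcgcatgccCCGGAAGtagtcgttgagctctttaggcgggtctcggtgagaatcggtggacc
Mrpl32, chr13:14612988-14613287, minus strand: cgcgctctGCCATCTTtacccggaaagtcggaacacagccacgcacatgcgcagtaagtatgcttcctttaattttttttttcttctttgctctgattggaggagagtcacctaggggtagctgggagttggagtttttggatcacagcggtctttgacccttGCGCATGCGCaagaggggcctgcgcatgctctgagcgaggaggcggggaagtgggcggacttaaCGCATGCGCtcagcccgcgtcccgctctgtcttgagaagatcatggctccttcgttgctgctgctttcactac
Mrpl21, chr19:3282792-3283091, plus strand: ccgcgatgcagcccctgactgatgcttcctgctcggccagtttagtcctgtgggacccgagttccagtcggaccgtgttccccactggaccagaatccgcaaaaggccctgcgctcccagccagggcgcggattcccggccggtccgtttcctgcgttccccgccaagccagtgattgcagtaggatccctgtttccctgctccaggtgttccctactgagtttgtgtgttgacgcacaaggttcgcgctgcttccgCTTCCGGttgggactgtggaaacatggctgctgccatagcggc

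Mrpl34, Mrpl33 and Mrpl21 each held 1 ETS match, at positions -37, -3 and 7 counted from 0 at the start base, and their mean levels were 128, 116 and 3.70 CPM. Mrpl32 held 3 NRF1 matches, 2 of them overlapping on opposite strands, and a YY1 match at -242. The same ETS word thus stood close to the start in the 2 highest genes and in a gene among the 5 lowest.

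Over the 68 genes matched in the RefSeq promoter table, the ETS motif was in 25, or 36.8%, against 20.6% of 8897 other genes with at least 30 reads and 9.93% of all 27025 genes in the table. The YY1 motif was in 12, or 17.6%, against 5.47% and 3.19% in the same 2 sets. The NRF1 motif was in 7, or 10.3%, against 4.18% and 1.95%. In all, 37 of the 68 promoters held at least 1 of the 3 motifs, 7 held 2 or more, and 0 held all 3.

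Matches were also placed relative to the start. Of the 25 promoters with an ETS match, 22 had one between 100 bases before and 50 after the start. For YY1 it was 9 of 12, and in 8 of the 12 a match began after the start position. For NRF1 it was 4 of 7, and 0 began after the start. Of the general promoter words, Sp1 was in a smaller share of the members than of other genes with at least 30 reads. The Sp1 word GGGCGG was in 50%, against 67.9% of other genes with at least 30 reads and 38.2% of all genes. Its exact Clopper-Pearson interval in the members was 37.6% to 62.4%. The word TATAAA was in 7.35%, against 8.82% and 15.7%. For TATAAA the members' interval, 2.43% to 16.3%, held the 8.82%, so a smaller share is not shown. Each motif was searched on both strands, and overlapping matches were counted separately. These shares are descriptions with no test, and a match is not a bound site.

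**Figure D3:**
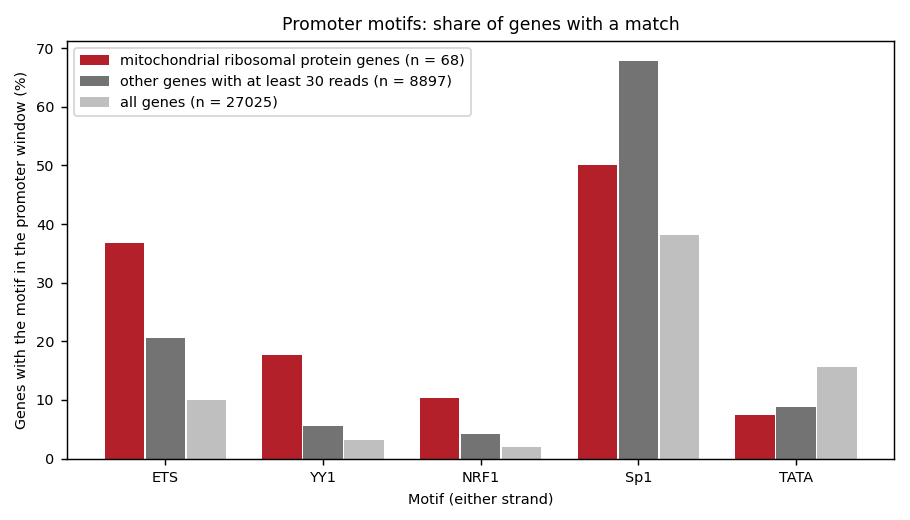
Share of genes (vertical axis, percent) whose promoter window holds each motif on either strand, for the mitochondrial ribosomal protein genes, for other genes with at least 30 reads and for all genes in the promoter table. The ETS, YY1 and NRF1 bars are highest for the ribosomal genes, at 36.8%, 17.6% and 10.3%, and the Sp1 bar is highest for other expressed genes, at 67.9%.

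Levels were set beside the motifs as well. Genes with the ETS motif had a median level of 29.7 CPM and those without it 22.1 CPM. With the NRF1 motif the median was 12.3 CPM and without it 22.8 CPM. With the YY1 motif it was 22.1 CPM and without it 22.6 CPM. These medians are descriptions of overlapping groups of genes.

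The large subunit had more transcript per gene than the small subunit in each library, and 3 genes carried most of the difference in means. Large subunit genes averaged 28.9 CPM and small subunit genes 23.2 CPM. The log2 ratio of mean level per gene, large over small, was 0.31, 0.38 and 0.26 in replicates 1, 2 and 3, a mean of 0.32 ± 0.06 (SD, n = 3) or 1.25-fold, positive in each of the 3. The exact sign-flip permutation p (two-sided) was 0.25, the smallest possible. Without Mrpl34, Mrpl33 and Mrpl18, a calculation chosen after the data were seen, it was 0.02 ± 0.06. With the median gene in place of the mean it was 0.43, however, and by symbol, Mrpl over Mrps, 0.38.

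The sums of the subunits were set beside each other on both scales, with no test. On the authors' scale large subunit genes summed to 1434, 1436 and 1466 CPM (CV 1.26%), and small subunit genes to 601, 573 and 635 CPM (CV 5.18%). As a share of assigned reads, large subunit genes held 0.161%, 0.147% and 0.148% and small subunit genes 0.0674%, 0.0587% and 0.0642%, both highest in replicate 1 and lowest in replicate 2. The ratio of large over small, which does not depend on the scaling, was highest in replicate 2. Relatives of bacterial proteins averaged 28.7 CPM per gene and mitochondria-specific proteins 24.2 CPM. That log2 ratio was 0.25 ± 0.05 (SD, n = 3), positive in each of the 3, again with the smallest possible exact sign-flip permutation p, 0.25. With the median gene in place of the mean it was 0.19 ± 0.15. The 3 highest genes, Mrpl34, Mrpl33 and Mrpl18, are all bacterial relatives and raise that mean. The ratio without them was not calculated, so the difference in means may depend on these 3 genes. In the large subunit the median level was 22.5 CPM for bacterial relatives and 24.0 CPM for mitochondria-specific genes. In the small subunit these medians were 23.1 and 15.8 CPM.

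Many single genes varied more between the libraries than the sum did. Of the 76 genes with at least 30 reads, 34 differed past counting noise, or 44.7%, when every library was set against the remaining 2 in an exact binomial test, with Benjamini-Hochberg adjustment over all 11833 entries tested. The same test called 51.9% of all those entries and 50.5% of the 9622 other entries with as many reads as the members, 64 to 3538. The share of members called thus lay close to the background of these libraries. Among the 34 genes the highest library stood 1.21-fold to 2.28-fold above the lowest, with a median of 1.43-fold. The fold was over 1.5 in 14 of them and over 2 in 2, Mrpl21 and Mrpl32.

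The directions were mixed. The library most apart from the other 2 was replicate 1 for 11 of the 34 genes, 5 higher and 6 lower there. It was replicate 2 for 10, with 4 higher and 6 lower, and replicate 3 for 13, with 9 higher and 4 lower. Over all 76 tested genes, 24 were highest in replicate 1, 24 in replicate 2 and 28 in replicate 3. With TMM scaling these counts were 26, 21 and 29, and with library totals 45, 12 and 19. The authors' denominators were 1.12, 1.03 and 1.01 times the library totals in replicates 1, 2 and 3. On library totals every entry thus rose most in replicate 1.

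**Figure D4:**
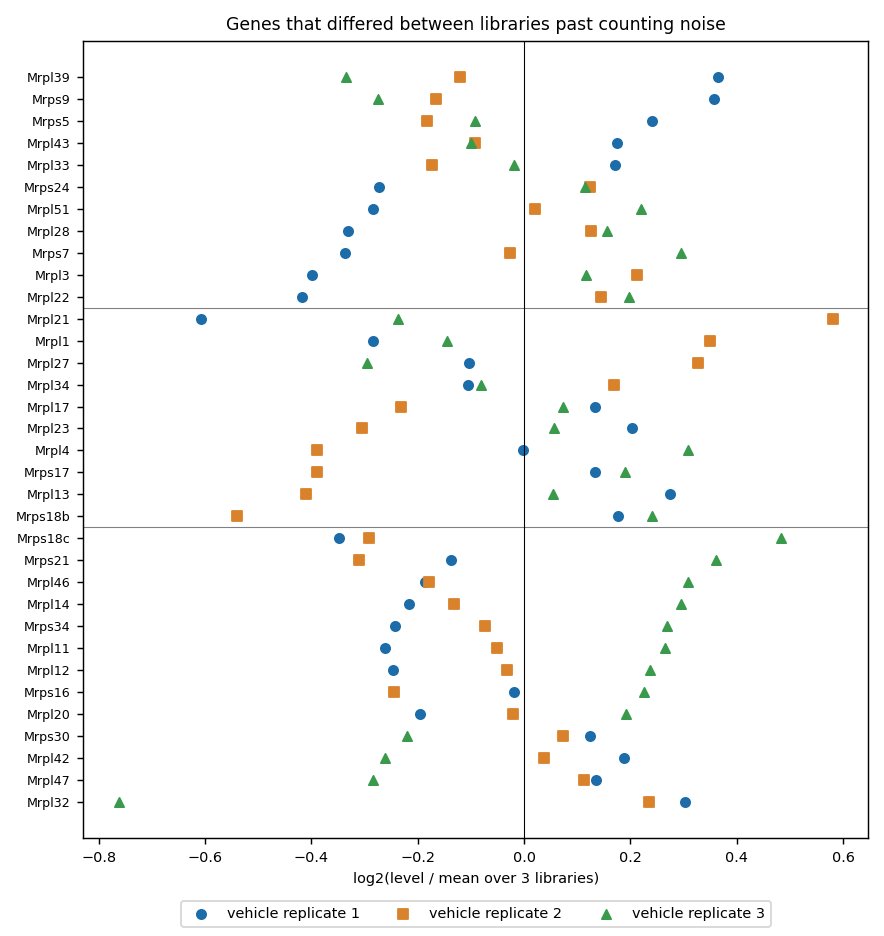
The 34 genes that differed between libraries past counting noise, each with the log2 ratio of its level to its mean over the 3 libraries (horizontal axis), 1 point per library. From top to bottom the blocks hold the genes in which replicate 1, 2 or 3 was most apart, and each block has genes on both sides of 0.

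Replicate 3 stood apart for the 3 genes with the smallest p-values. Mrpl32 (chromosome 13, 14608184 to 14613165), for bL32m, a protein matured by the m-AAA protease of the inner membrane, had 19.0, 18.2 and 9.10 CPM, a 2.09-fold range (exact binomial adjusted p = 1.43e-08). Replicate 3 was low, while replicates 1 and 2 lay within 1.05-fold of each other. Mrps18c, for bS18m, had 17.5, 18.2 and 31.1 CPM, a 1.78-fold range in the opposite direction (exact binomial adjusted p = 4.75e-10). Mrps21 had its highest level in replicate 3 too, a 1.59-fold range (exact binomial adjusted p = 3.87e-11). Without replicate 3 none of these 3 genes was called (exact binomial adjusted p = 0.813, 0.840 and 0.201). Where the most apart library is the one left out, here and below, losing the call largely follows from that choice.

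Replicate 2 stood apart for Mrpl34, Mrpl21, Mrpl1 and Mrps18b. Mrpl34 had its highest value there, a 1.21-fold range (exact binomial adjusted p = 8.98e-06), and was not called without it (0.808 in the same exact test). Mrpl21, for bL21m, spanned 2.28-fold on 100 reads, with 25, 46 and 29 reads (exact binomial adjusted p = 0.00566). It was not called without replicate 2 (0.569, same exact test) or without replicate 1 (0.0568). Mrpl1, for uL1m of the L1 stalk, which helps release spent tRNA in bacteria, had 8.45, 13.1 and 9.32 CPM (exact binomial adjusted p = 0.0129). Mrps18b had 10.9, 6.62 and 11.4 CPM, lowest in replicate 2 (exact binomial adjusted p = 0.00391). Without replicate 2 neither Mrpl1 nor Mrps18b was called (0.686 and 0.872, same exact test).

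Replicate 1 stood apart for Mrps9, Mrpl39, Mrpl33 and Mrpl51. Mrps9, for uS9m, whose bacterial relative reaches the peptidyl-tRNA site, had 34.6, 24.1 and 22.3 CPM (exact binomial adjusted p = 1.15e-06). Mrpl39, for mL39, had 15.8, 11.3 and 9.75 CPM (exact binomial adjusted p = 0.00161). Both were highest in replicate 1, and neither was called without it (0.605 and 0.486, same exact test). Mrpl33 was also highest there, a 1.27-fold range (exact binomial adjusted p = 1.18e-05), whereas Mrpl51 was lowest there, a 1.42-fold range (exact binomial adjusted p = 1.25e-05). Without replicate 1 both missed the threshold (0.0581 and 0.0848, same exact test). Mrpl12 differed by 1.40-fold (exact binomial adjusted p = 0.000118), highest in replicate 3, and was not called without replicate 3 (0.108).

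With 2 libraries in place of 3 fewer genes were called: 16 without replicate 1, 25 without replicate 2 and 20 without replicate 3, while the share over all entries was 34.4%, 33.1% and 34.3%. Of the original 34, 13, 25 and 19 remained called. Mrpl4, for uL4m near the exit tunnel, with 24.4, 18.7 and 30.2 CPM, was the only gene called in all 3 of these fits, and 21 genes were called in 2 and 12 in 1. Mrps30, for mL65, with 28.1, 27.1 and 22.1 CPM, just passed (exact binomial adjusted p = 0.0418) and did not with TMM scaling (0.0506) or without replicate 1 or 3.

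Other genes stayed nearly level across libraries. Mrpl44, for mL44, an RNase III-like protein, had 10.4, 10.5 and 10.2 CPM, a CV of 1.44%, the lowest of the 76 tested members. Mrpl53, for mL53, had 37.3, 38.5 and 36.5 CPM (CV 2.69%). Mrpl35, for bL35m, had 31.5, 33.7 and 32.1 CPM (CV 3.54%). Mrpl30, for uL30m, had 36.4, 38.6 and 39.2 CPM (CV 3.85%), and Mrpl45, for mL45, which sits at the tunnel exit facing the inner membrane, had 33.9, 33.2 and 36 CPM (CV 4.16%). None of these 5 was called (exact binomial adjusted p = 1 for each), which largely follows from their choice by smallest CV. Mrpl18, Mrps25 and Mrps15, in the top 5 by level, were not called either (exact binomial adjusted p = 0.232, 0.0566 and 0.591). For 2 of them this depends on the scaling, since Mrps25 was called with TMM (0.0359) and median-of-ratios factors (0.0403) and Mrpl18 with library totals (0.0240), in the same exact test.

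**Figure D5:**
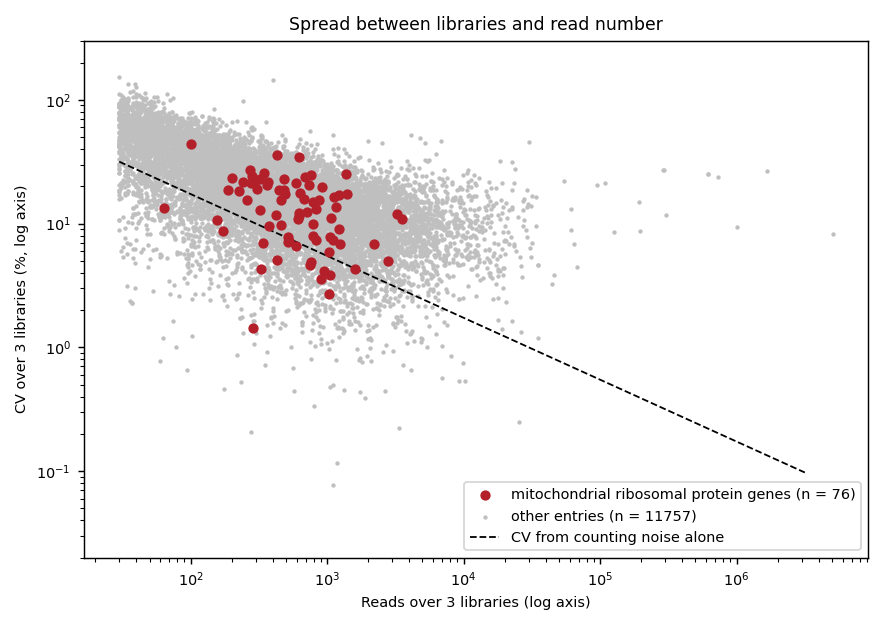
CV over the 3 libraries (vertical axis, percent, log scale) against the total reads of an entry (horizontal axis, log scale), for the 76 tested mitochondrial ribosomal protein genes in red and the 11757 other entries with at least 30 reads in grey. The dashed line is the CV that counting noise alone gives, and the red points lie on both sides of it, within the grey cloud.

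Over the 76 tested members the median CV was 12.9%, from 1.44% for Mrpl44 to 44.0% for Mrpl21, against 16.1% over all entries tested and 15.7% over other entries in the members' range of reads. Their median chi-square per degree of freedom, which counting noise alone would hold near 1, was 3.47, against 4.09 over all entries and 3.92 in that range. Cytosolic ribosomal protein genes, with far more reads, had a median CV of 7.81%, and 67 of 77 tested were called. Nuclear respiratory chain genes had a median CV of 9.78%, and 50 of 79 were called.

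Calls were counted by origin and by subunit, and the differences between these counts were not tested. The share called over all entries was 51.9%, and 50.5% in the members' range of reads. Of the bacterial relatives 26 of 45 were called, or 57.8%, with a median CV of 16.9%. Of the mitochondria-specific proteins 8 of 30 were called, or 26.7%, with a median CV of 8.49%. Mrps18b, which was called, and Mrps18a, which was not, are counted there although they derive from bacterial bS18. Median read numbers of the 2 kinds were 629 and 523.5. Within the large subunit 18 of 30 bacterial relatives and 6 of 20 mitochondria-specific genes were called, and within the small subunit 8 of 15 and 2 of 10. Without replicate 1 the counts over both subunits were 13 bacterial relatives and 3 mitochondria-specific genes, without replicate 2 they were 18 and 7, and without replicate 3 they were 16 and 4, where 34.4%, 33.1% and 34.3% of all entries were called. By subunit, 24 of 50 large subunit genes and 10 of 25 small subunit genes were called.

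The Mrps18 paralogs derive from a single bacterial protein, bS18, and each occupies a place of its own in the ribosome. Mrps18c keeps the bacterial position in the small subunit, Mrps18b encodes mS40 of the small subunit and Mrps18a encodes mL66 of the large subunit. Mrps18c averaged 22.3 ± 7.66 CPM, Mrps18a 13.5 ± 1.28 CPM and Mrps18b 9.63 ± 2.62 CPM (SD, n = 3 each). Mrps18c stood above both paralogs in each library. Mrps18a, with 12.5, 13 and 15 CPM, did not differ between libraries past counting noise (exact binomial adjusted p = 0.519), whereas Mrps18b and Mrps18c did, with different libraries apart. The extra gene Mrps36 had 10.5, 7.70 and 9.64 CPM, within the range of the true ribosomal genes, and was not called (exact binomial adjusted p = 0.281).

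Beyond these genes, 86 further genes of mitochondrial translation, mitochondrial RNA handling and mitochondrial biogenesis were measured. Of the 84 tested, 41 differed between libraries, or 48.8%, near the 51.9% of all entries. The lists named next are small, and their counts are to be read against that same share. The 86 genes averaged 17.0 CPM, with a sum of 1458, 1477 and 1451 CPM (CV 0.922%). Of the mean sum of 1462 CPM, the 10 transcription factor genes of biogenesis held 365 CPM. The mitoribosomal proteins with other symbols ran from 16.8 CPM for Ptcd3 to 82.3 CPM for Gadd45gip1, and 3 of 6 were called. Gadd45gip1, for mL64, had 77.5, 83.2 and 86.2 CPM and was not called. Aurkaip1, for mS38, had 45.4, 54.2 and 58.4 CPM, and Chchd1, for mS37, had 58.8, 48.7 and 45.1 CPM, and both were called, in opposite directions. Ict1, the file's name for Mrpl58, a peptidyl-tRNA hydrolase built into the large subunit, had 22, 21.9 and 31.4 CPM and was called, highest in replicate 3.

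Factors that act on the ribosome averaged less per gene than its proteins, at 13.3 CPM for translation factors, 12.2 CPM for assembly genes and 8.30 CPM for tRNA synthetases. Of the translation factors 5 of 13 were called. The highest were Oxa1l, which inserts new proteins into the inner membrane, at 27.2 CPM, and the initiation factor genes Mtif3 at 26.6 CPM and Mtif2 at 22.8 CPM, of which only Mtif2 was called, highest in replicate 2. Of the assembly and ribosomal RNA modification genes 14 of 25 were called, among them the 3 highest, C1qbp at 70.2 CPM, the ribosome-binding factor gene Rbfa at 34.3 CPM and Mpv17l2 at 27.2 CPM. Of the mitochondrial tRNA synthetases 6 of 17 were called, but none of the 3 highest, Iars2, Lars2 and Cars2, at 29.8, 13.4 and 12.4 CPM.

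Genes of mitochondrial RNA synthesis and handling were called in 8 of 14 cases. The mRNA-stabilising partners Lrpprc and Slirp stood at nearly the same level, 45.5 and 45.2 CPM. Tfam, which packages mitochondrial DNA and starts its transcription, had 22.2, 34.4 and 22 CPM, highest in replicate 2. Of the transcription factors of mitochondrial biogenesis 5 of 9 were called. The highest were Yy1 at 131 CPM, Gabpb2 at 76.0 CPM and the nuclear receptor gene Esrra at 64.7 CPM. The factors of the 3 promoter motifs were all present, with Nrf1 at 35.3 CPM and the ETS subunit gene Gabpa at 18.8 CPM.

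Many members shared their start region with another gene, which the choice by symbol did not use. In the GENCODE annotation, 33 of the 77 genes, or 42.9%, began within 1000 bases of a gene that runs the other way from the same start region, against 1808 of 10848 other tested coding genes, or 16.7%. Of these, 31 had a partner in the files, and its level ran from 0.0361 CPM for Oaz3, a single read opposite Mrpl9, to 444 CPM for Fau, opposite Mrpl49. In 17 of the 31 the levels of member and partner were more than 4-fold apart, and in 17 the partner was the lower gene. Mrpl18 and its partner Tcp1, a chaperonin gene, were close, at 99.6 and 96.8 CPM. Mrpl32 averaged 15.4 CPM and its partner Psma2, a proteasome gene, 181 CPM. A single pair joined 2 members, Mrpl46 at 12.9 CPM and Mrps11 at 7.24 CPM.

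The genes were also short. Their median coding length was 574.5 bases, against 1356 bases for other tested coding genes, and their median transcript length 1302 bases, against 3047. Across the 76 members with a length, the Spearman correlation of level with coding length was -0.36, so shorter members tended to stand higher, as Mrpl34 and Mrpl33 do with 276 and 195 coding bases. With transcript length it was -0.12. These are descriptions across genes of the same 3 libraries.

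For 22 members an exon overlapped that of another entry, in 20 cases on the opposite strand, and the strand setting of the counting is not given. Reads of such genes may be split or shared with the partner. The overlap lay at the member's 3′ end, where the kit reads, for 5 of them: Mrps25 with Nr2c2, Mrpl24 with Rrnad1, Mrpl49 with Syvn1, Mrpl19 with Gcfc2 and Mrps34 with Mapk8ip3. Mrps25 had 2214 reads and Nr2c2 4041, and Mrps34 had 446 and Mapk8ip3 547. Their levels are uncertain to that extent. Of these 5 only Mrps34 was called, with 13.6, 15.3 and 19.4 CPM. The other 17 were Mrpl18, Mrpl14, Mrps24, Mrpl36, Mrps26, Mrpl13, Mrpl47, Mrps7, Mrpl46, Mrpl48, Mrpl27, Mrpl44, Mrpl9, Mrps11, Mrps6, Mrpl21 and Mrps27. Of the 22 sharing an exon 9 were called, and of the 54 tested members that share none 25 were called, or 46.3%.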

How the data were processed

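Gene expression was measured in 3 vehicle bone marrow libraries with a Lexogen QuantSeq kit from 500 ng of RNA, per the labels' protocols. Bowtie2, bedtools and mm10 are named in the submitters' processing notes, whereas versions, annotation, strand setting and scaling rule were not given in the sources used here. The authors deposited log2 values per symbol, whose own pattern is log2(x + 1), where x counts reads per 1000000 of a library size the authors rescaled. Every library gave whole reads for 100% of values (tolerance 1e-06). The authors' denominators, 1.12, 1.03 and 1.01 times the assigned reads, were kept as the scale. The precursor ribosomal RNA entry Rn45s (18.8%, 20.3% and 18.6% of reads) was not removed.

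Entries with at least 30 reads were tested against counting noise by setting every library against the remaining 2 in a two-sided exact binomial test. The smallest p times 3 was Benjamini-Hochberg adjusted at 0.05. The test was tested on simulated counts. No dispersion model was fitted, so the test set each entry against counting noise only. Symbols were matched to GENCODE M21 of GRCm38 for 22230 entries and to RefSeq promoters for 68 members. Named members were the 10 highest, the 5 lowest, the 8 with the largest and the 5 with the smallest CV among those with at least 100 reads, the Mrps18 paralogs, Mrps30, Mrps36 and those sharing exons, and of each list the 3 highest. Mrpl4, Ict1, Nrf1, Gabpa and the neighbouring genes are outside this rule and were picked with their values known. The rule for naming members and the lists were set with earlier results of these data known. Alternatives covered scaling, read minimum, test, pseudocount and leaving out each library. Python 3.11.15, numpy 2.4.6, pandas 2.3.3 and scipy 1.17.1 were used.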

Additional observations from a re-analysis of the deposited data

How the results depend on the processing

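No paired analysis was possible because there was a single group of samples. The mean summed level was 2058 CPM and became 2165 CPM with library totals, 2164 with TMM, 2164 with median-of-ratios factors and 3210 with totals without ribosomal RNA and globins, and 2031 to 2078 with a library left out. The log2 range from highest to lowest gene, on log2(CPM + 1), was 5.29, and became 5.45 without ribosomal RNA and globins in the totals, 5.74 with a pseudocount of 0.1, 5.15 with the median of the libraries and 5.25 to 5.37 with a library left out. The median CV of 12.9% became 14.3% with library totals and 8.86% to 10.9% with a library left out. The 34 calls became 16 to 25 with a library left out, where fewer samples enter. The 41 calls among further genes of mitochondrial translation, RNA handling and biogenesis became 20 to 27. Of the 34, 27 were kept with library totals, which added 11, 33 with TMM or median of ratios, each adding 1, and 34 without ribosomal RNA and globins, which added 4. The log2 ratio of large over small subunit stayed within 0.29 to 0.35 with a library left out.

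The ratio of motif shares, members over all genes, changed when other genes with at least 30 reads were the comparison: it became 1.78 in place of 3.70 for ETS, 3.22 in place of 5.53 for YY1, 2.46 in place of 5.28 for NRF1, 0.833 in place of 0.469 for TATA and, turning round, 0.737 in place of 1.31 for Sp1. The cause was not tested. The TATA share was 1.47% in the shorter window from 100 bases before to 50 after the start. Leaving out replicate 1, 2 or 3 lost 21, 9 and 15 of the 34 calls, including genes whose most apart library was the one left out. Where that library stayed in, 714 recomputed values of single members kept their side of the threshold, 23 newly passed it, 22 no longer did and 0 of the called ones reversed. Depth limits the genes below 10 CPM, such as Mrpl21 with 100 reads, where only large differences could pass. Mrps28, with 23 reads, was not tested at the minimum of 30 reads. With a minimum of 10 or of 100 reads all 34 calls were kept and 1 was added. With no minimum 33 were kept and 1 was added.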
